A study of Mus musculus with 16 samples.

Results

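Testis macrophages were examined in single-cell RNA sequencing data of mouse testes at postnatal day 2 (P2). A cell was taken as a macrophage when it held at least 5 unique molecular identifiers (UMIs, which count captured RNA molecules) of *C1qa*, *C1qb* and *C1qc* together and at least 1 UMI of *Tyrobp*. The 3 C1q genes encode the chains of complement component C1q, and *Tyrobp* encodes the adaptor DAP12. The members were thus chosen by their measured C1q and *Tyrobp* values. By this rule 57 of 11766 kept cells were macrophages, 35 of 6565 in the wild-type library and 22 of 5201 in the library labelled *Ddx5* cKO. Kept cells had 1000 genes or more, and mitochondrial genes took no more than 10% of their UMIs. With a minimum of 2000 genes per cell, 31 and 22 macrophages were left.

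The study asked what the RNA helicase DDX5 does in neonatal male germ cells. Whole P2 testes of wild-type mice and of *Ddx5* conditional knockout mice were dissociated with TrypLE, and cells were captured with the Chromium 3′ v3 kit. In the knockout, floxed *Ddx5* alleles were combined with a Cre recombinase driven by the promoter of *Mvh* (*Ddx4*), a gene of germ cells, so macrophages were not the target of the deletion. The reference for counting also held the sequences of GFP and CRE, and a germ cell reporter, Oct4-GFP, was used in the study. Each genotype had 8 numbered libraries, but the table of counts holds them under 1 barcode suffix per genotype and nothing says that they came from separate animals. Each genotype was therefore 1 sample, no test was made between genotypes, and intervals given below are exact 95% intervals that cover counting error only. The files do not say which suffix is which genotype. Suffix 4, in which all 20 CRE UMIs of the table were found, was taken as the knockout and suffix 3 as the wild type. The numbers of cells with over 2000 genes, 6328 in suffix 3 and 4950 in suffix 4, were also used for this.

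Macrophages are phagocytes of the innate immune system. Those of the fetal and newborn testis derive from yolk sac and fetal liver progenitors, lie in the interstitium and, later, also along the seminiferous tubules, and depend on signalling through the receptor of colony stimulating factor 1. They are known for clearing dying cells, for remodelling of testis cords and vessels, and for contacts with Leydig cells and with the niche of spermatogonia. The study called the cluster of such cells peritubular macrophages, but sequencing of dissociated cells gives no position, so that only the name macrophages is used here.

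The table held 6763 and 5423 barcodes with 84263163 and 67558106 UMIs. Of the barcode sequences, 12 were found in both libraries, and none of these belonged to a macrophage. The targeted gene went against the label in germ cells: among cells with at least 4 of 10 germ cell markers, *Ddx5* was at 1153 CPM (UMIs of a gene per 1000000 UMIs of the cells summed, interval 1121–1186) in the 131 such cells of wild type and at 1769 CPM (1649–1896) in the 12 of the library labelled *Ddx5* cKO. The library is therefore named by its label throughout. The counts come from 3′ tags, which check nothing where they lie outside the deleted part of the gene, and their place in the gene was not examined here. In macrophages *Ddx5* was found in 34 of 35 and 22 of 22 cells, at 708 CPM in the wild-type library and 666 CPM in the library labelled *Ddx5* cKO, a ratio of 0.941 (interval 0.812–1.09). CRE had 0 UMIs in macrophages of either library, where a floor of 3 UMIs is 5.12 and 5.98 CPM, and GFP had 3 UMIs, all in 1 wild-type macrophage that also held 15 UMIs of the germ cell gene *Dazl* and 6 of 10 germ cell markers.

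Markers of other cell types were found in many of the macrophages. A marker counted as found from 1 UMI, so deep cells reach 3 markers more easily. At least 3 markers of another cell type were found in 30 of the 57 macrophages, most often stromal markers (21 cells), followed by Sertoli cell (8), Leydig cell (8), peritubular myoid (5) and B cell (4) markers, with 1 cell each for germ cell and erythroid markers, while no macrophage reached 3 endothelial, neutrophil, T and NK cell, mast cell or dendritic cell markers. Over all 57 cells, 8 of 11 neutrophil markers, 8 of 10 T and NK cell markers, 6 of 8 mast cell markers and 2 of 10 germ cell markers had 0 UMIs. Summed over cells, the 10 stromal markers took 958 CPM in wild-type macrophages and 2169 CPM in those of the library labelled *Ddx5* cKO, against 6731 and 7279 CPM in all other kept cells. In the median macrophage the same sum was 125 and 150 CPM, and it ranged from 0 in both libraries to 7277 and 10942 CPM. Scrublet called none of the macrophages a doublet, but 616 of the other kept cells. Several results are given with and without these 30 cells, and the part that RNA of other cells had in the results was not tested. Most of the 30 cells were deeper than the median macrophage (17944 UMIs), so leaving them out also leaves out deep cells.

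Macrophages were few in both libraries. They made up 0.533% (interval 0.372–0.741%) of kept wild-type cells and 0.423% (0.265–0.640%) of kept cells of the library labelled *Ddx5* cKO. The ratio of the shares was 0.793 (0.443–1.39), an interval of counting error only. With at least 2000 genes per cell the shares were 0.490% and 0.444%. Without the 30 cells with markers of another type they were 0.275% and 0.173%.

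Few cells lay near the limit on C1q. Of all kept cells, 11603 had 0 C1q UMIs, 105 had 1 to 4, and 58 had 5 or more, of which 1 had no *Tyrobp* UMI. The 57 macrophages had between 5 and 376 C1q UMIs, and 49 of them had at least 30. Of the 254 kept cells with a *Tyrobp* UMI, 197 had fewer than 5 C1q UMIs. The cells just inside the rule were of mixed kind. A wild-type cell with 5 C1q and 3 *Tyrobp* UMIs held 374 UMIs of the Leydig cell gene *Cyp11a1* and 7 of 8 Leydig cell markers. A cell of the library labelled *Ddx5* cKO with 6 C1q and 1 *Tyrobp* UMIs held all 10 Sertoli cell markers and 30 *Amh* UMIs. Another of that library, with 8 C1q and 2 *Tyrobp* UMIs, held 8 of 10 stromal markers. A wild-type cell with 6 C1q and 30 *Tyrobp* UMIs had 137 *H2-Aa* UMIs and 0 *Apoe* UMIs. Just outside the rule were, among others, a cell with 3 C1q, 42 *Tyrobp* and 24 *Ccr2* UMIs, and a cell with 5 C1q and 0 *Tyrobp* UMIs that held 10 Sertoli cell markers.

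The macrophages were not shallow cells. They had between 3466 and 40637 UMIs in the wild-type library, with a median of 16412, and between 7217 and 43778 in the library labelled *Ddx5* cKO, with a median of 22071.5. All other kept cells had medians of 10993 and 11345 UMIs. The medians of detected genes in macrophages were 4124 and 4587.5, and mitochondrial genes took 2.00% and 2.43% of UMIs in the median cell. The rule itself favours deep cells, since it asks for UMIs. The UMIs of a library's macrophages came to 586474 and 501584, so that 1 UMI stood for about 2 CPM in a sum over cells.

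The rule chose cells by C1q and *Tyrobp*, so the levels of these genes and of all genes that mark the cells are a description and carry no test. *C1qa* was at 3593 and 3501 CPM, *C1qb* at 3183 and 3441 CPM, *C1qc* at 2304 and 2257 CPM and *Tyrobp* at 2704 and 2753 CPM in the wild-type library and the library labelled *Ddx5* cKO. The label was then checked against markers outside the rule. All 20 genes of a macrophage identity list, among them *Csf1r*, *Spi1*, *Cd68*, *Aif1*, *Adgre1* and *Ptprc*, were over 2-fold higher in macrophages than in the other kept cells of the same library in both libraries. Most of those other cells are not leukocytes. Against 3 groups of other cells with *Tyrobp*, described at the end (cells with *Ccr2* and *Lyz2*, with *S100a8* and *S100a9*, or with *H2-Aa*), 9 of the 20 genes were higher in macrophages than in all 3 groups and 4 were lower than in all 3. *Ptprc*, the common leukocyte antigen CD45, was among the latter, at 93.7 CPM in macrophages against 440 CPM, 338 CPM and 258 CPM. Among all 4581 genes with enough UMIs (at least 50 in macrophages, or at least 50 expected there from the level in other cells), 664 were over 2-fold higher in both libraries, or 14.5%, and 918 were over 2-fold lower, or 20%. Medians of log2 ratios to other cells, here and below, used a lower limit of 20 UMIs observed or expected. The median was −0.33 over all 8108 such genes and 5.84 over the identity list. After scaling by the median ratio 839 genes were higher and 560 lower, which moved the share of higher genes from 42.0% to 60.0%.

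*Csf1r*, the receptor of the growth factors CSF1 and IL34, had 1, 13 and 33 UMIs per cell (lowest, median and highest) in the wild-type library and 0, 13.5 and 35 in the library labelled *Ddx5* cKO. It was found in 55 of 57 macrophages and in 0.219% of 4114 cells outside the macrophage rule with at least 5 of 10 Sertoli cell markers. Sertoli cells should lack it, and this group serves here as the background of free RNA (median depths 17944 and 14329.5 UMIs). Its shares are low in part because cells of the macrophage rule were left out. For example, 1 wild-type macrophage with 9 of these markers held 22 *Csf1r*, 108 *Pf4* and 117 *Hmox1* UMIs. The 2 macrophages with 0 *Csf1r* UMIs were the low-C1q cells with Sertoli cell and stromal markers. *Adgre1*, which encodes the F4/80 antigen, was found in 52 macrophages at 348 and 353 CPM, 759 times (interval 586–996) its level in other kept cells. *Spi1*, which encodes the transcription factor PU.1, was at 339 and 317 CPM, against 2.51 CPM in all other kept cells. Over both libraries *Spi1* was at 329 CPM, below its 567, 383 and 348 CPM in the same 3 groups of cells with *Tyrobp*.

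**Figure D1:**
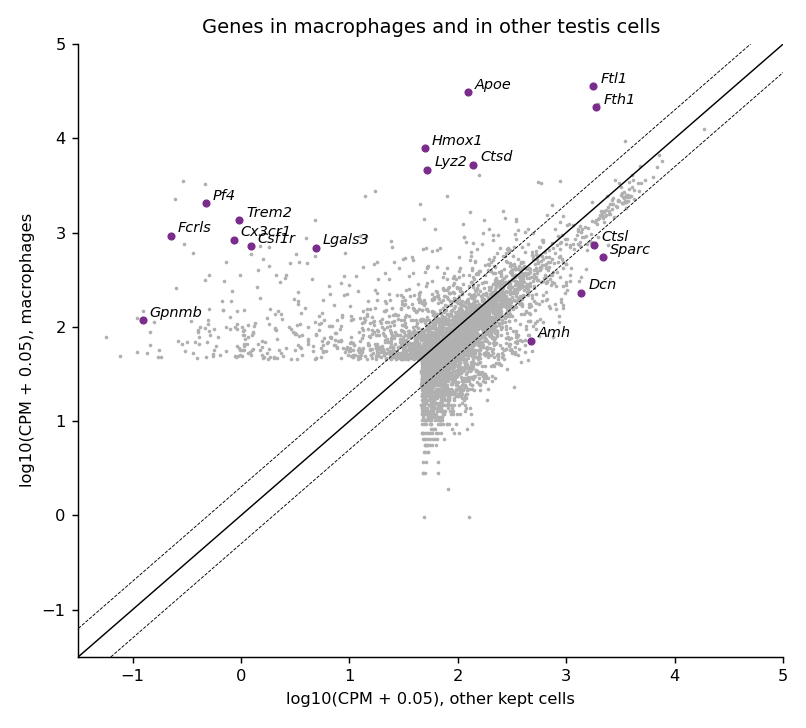
Each point is 1 of 4581 genes, with its level in all other kept cells on the x axis and in the 57 macrophages on the y axis, both as log10(CPM + 0.05), the solid line marking equal levels and the broken lines a 2-fold difference. *Pf4*, *Fcrls*, *Trem2* and *Cx3cr1* lie far above the line from levels near 0 in other cells, *Apoe*, *Ftl1* and *Fth1* lie at the top, and *Amh*, *Dcn*, *Sparc* and *Ctsl* lie below it.

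Sequence just before the start of macrophage genes was read for 3 short motifs, because the genes below belong to programmes in which the factors that bind such letters are well known: GAGGAAGT (the core letters of PU.1 sites), GTCACGTG (an E-box of the kind bound by TFEB in lysosomal genes) and the motif of interferon regulatory factors (a GAAA repeat with a gap of 2 bases). Both strands of RefSeq promoters (build GRCm38.p6, from 250 bases before to 50 after the start) were searched. The E-box letters were found in 7 of 33 lysosomal genes with a promoter entry (21.2%) and in 2.55% of 27025 genes in all, in 0 of 15 matched genes among the 20 most marked macrophage genes described below, and in 0 of 16 identity genes. The PU.1 letters were found in 2 of those 15 genes (13.3%), in 4 lysosomal genes (12.1%), in 1 identity gene (6.25%) and in 3.69% of all genes, and the interferon regulatory factor letters in 1 (6.67%), 2 (6.06%), 2 (12.5%) and 3.99%. The stretches below show examples on the strand of the gene, 5′ to 3′, with the motif, or its reverse complement where it lies on the opposite strand, in capitals. They are at chr2:164833749-164833772 (*Ctsa*, + strand), chr7:142387908-142387935 (*Ctsd*, − strand), chr8:13159123-13159150 (*Lamp1*, + strand), chr12:102439126-102439153 (*Lgmn*, − strand), chr5:90772415-90772434 (*Pf4*, + strand) and chr3:95526755-95526784 (*Ctss*, + strand).
*Ctsa*, E-box: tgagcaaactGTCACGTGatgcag
*Ctsd*, E-box: gcccgcgtctCACGTGACccgttgaggg
*Lamp1*, E-box: tgccgactggCACGTGACcacatcacgt
*Lgmn*, E-box: tggaatgtctGTCACGTGgtccatttta
*Pf4*, PU.1: tctgcagagcACTTCCTCat
*Ctss*, interferon regulatory factor: gtctttaaatGAAACCGAAAtgaaagttca
A match is a description of letters, and no binding was measured here.

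The genes that marked macrophages most strongly, ranked by the lower bound of the ratio to other kept cells among genes found in at least 50% of macrophages, were *Pf4*, *Fcrls*, *Ms4a7*, *Stab1*, *Trem2*, *Gpr34*, *Tbxas1*, *C3ar1*, *Cx3cr1*, *P2ry13*, *Ltc4s*, *Ms4a6d*, *Adgre1*, *Slc11a1*, *P2ry12*, *Csf1r*, *Slco2b1*, *Mrc1*, *Aif1* and *Tlr7*. *Pf4*, a chemokine stored in platelets and made by some tissue macrophages, had 0, 28 and 200 UMIs per cell in the wild-type library and 0, 36 and 106 in the library labelled *Ddx5* cKO. It was 4861 times (interval 3785–6348) its level in other cells. At least 10 *Pf4* UMIs were found in 40 of 57 macrophages and in 0 of 4114 Sertoli marker cells, which leave out cells of the macrophage rule. *Fcrls*, which encodes an Fc receptor-like scavenger protein, was found in 51 of 57 macrophages with up to 49 and 40 UMIs per cell, 5350.2 times (3629.8–8231) its level in other cells. *C3ar1*, the receptor of the complement fragment C3a, was found in 33 of 35 and 22 of 22 macrophages.

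Genes of resident tissue macrophages ranged from those found in most cells to those near 0. Of 16 listed genes, 10 had enough UMIs and 9 were over 2-fold higher than in other cells in both libraries (list median 2.83 log2). *Mrc1*, the mannose receptor CD206, had 0, 14 and 41 UMIs per cell in the wild-type library and 0, 8.5 and 42 in the library labelled *Ddx5* cKO, and at least 5 in 41 of 57 macrophages. *Stab1*, the scavenger receptor stabilin-1, was found in 51 cells at 680.3 and 514 CPM. *Selenop*, a secreted carrier of selenium, was 31.0 times (29.7–32.3) and *Gas6*, a bridging ligand in the uptake of dying cells, 2.31 times (2.11–2.53) its level in other cells. *Folr2*, which encodes folate receptor beta, was found in 20 of 57 macrophages, with 52 UMIs in all. *Lyve1* had 6 UMIs in 6 cells, *Timd4*, a receptor for phosphatidylserine, 4 UMIs in 3 cells, the haemoglobin scavenger receptor *Cd163* had 1 UMI, and the complement receptor *Vsig4* had 0, against a floor of 3 UMIs, or 5.12 and 5.98 CPM, per library. The 6 cells with *Lyve1* were 10.5% of macrophages, against 0.316% of Sertoli marker cells.

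Several genes best known from microglia, the macrophages of the brain, were part of the pattern. Of 14 listed genes, 10 had enough UMIs, 8 were over 2-fold higher than in other cells and 1, *Sparc*, was lower (list median 2.91). *Cx3cr1*, the receptor of fractalkine, had 0, 12 and 46 UMIs per cell in the wild-type library and 0, 17 and 35 in the library labelled *Ddx5* cKO. It was found in 51 of 57 macrophages (89.5%) and in 0.243% of Sertoli marker cells. *P2ry12*, a purinergic receptor, was found in 34 macrophages (59.6%), with up to 12 and 8 UMIs per cell, and *Gpr34* in 41. The list was not met in full. *Sall1*, which encodes a transcription factor of microglia, had 0 UMIs in all 57 cells, and *Tmem119* had 45 UMIs in 29 cells, 1.96 times (1.42–2.62) its level in other cells.

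Genes of recognition and uptake were higher in macrophages. All 14 tested genes of Fc receptors and of signalling through immunoreceptor tyrosine-based motifs were over 2-fold higher than in other cells (list median 3.83), led by *Trem2*, a lipid receptor that signals through DAP12. *Trem2* had 0, 20 and 55 UMIs per cell in the wild-type library and 0, 34.5 and 74 in the library labelled *Ddx5* cKO, and 53 of 57 macrophages had at least 1. *Fcgr3* was 342 times and *Fcgr1*, the high-affinity receptor for IgG, 338 times its level in other cells. All 5 tested complement genes (*C3ar1*, *C5ar1* and *Itgam* among them) and all 8 tested genes of innate sensing, *Tlr2* and *Tlr7* among them, were higher too, with medians of 2.53 and 2.32. Not all of these genes set macrophages apart from other cells with *Tyrobp*: *Itgam* was at 48.7 CPM, against 163 CPM in the cells with *Ccr2* and *Lyz2*, 137 CPM in those with *S100a8* and *S100a9* and 51.6 CPM in those with *H2-Aa*, and *Fcgr3* was at 526 CPM against 472 CPM in the cells with *Ccr2* and *Lyz2*. *Fcer1g* was at 2441 CPM against 2971 CPM in the cells with *Ccr2* and *Lyz2*. Levels in these 3 groups were taken for 3 of 20 listed Fc receptor and motif genes and 2 of 15 complement genes. They were taken for 0 of 20 innate sensing genes, so most of these genes were not compared with other cells with *Tyrobp*. Of 16 tested genes of efferocytosis, the uptake of dying cells, 12 were higher and 2, *Tyro3* and *Mfge8*, lower. *Mertk*, a receptor in that process, was 11.3 times (8.93–14.2) its level in other cells, while its relative *Axl* was at 161 CPM in macrophages and 127 CPM elsewhere.

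Lysosomal genes took a larger part of the UMIs of macrophages than of other cells. Summed over 40 genes they took 26443 and 30081 CPM in macrophages, against 4908 and 4860 CPM in other cells, and 28 of 32 tested genes were over 2-fold higher in both libraries (median 2.26). Over both libraries the sum was 28120 CPM, against 14804 CPM in the cells with *Ccr2* and *Lyz2*, 4592 CPM in those with *S100a8* and *S100a9* and 8622 CPM in those with *H2-Aa*, and 27 of the 40 genes were higher in macrophages than in all 3 of these groups. Among the other 13, *Npc2* was at 951 CPM against 1878 CPM, *Ctsc* at 490 against 925 CPM and *Ctsh* at 382 against 744 CPM in the cells with *Ccr2* and *Lyz2*, and *Psap* at 1690 against 2642 CPM in those with *H2-Aa*. These 4 genes were named after their values were seen. *Ctsd*, the aspartic protease cathepsin D, had 2, 61 and 250 UMIs per cell in the wild-type library and 2, 119.5 and 395 in the library labelled *Ddx5* cKO, and was found in every macrophage. It was at 4634 and 5919 CPM, 37.6 times (36.5–38.7) its level elsewhere. *Lgmn*, the asparaginyl endopeptidase legumain, was 45.9 times, *Ctsb* 25.9 times, *Ctsa* 14.2 times and *Lamp1*, a protein of the lysosomal membrane, 5.36 times its level in other cells. Of the 32 tested genes, 3 did not pass 2-fold in the same direction in both libraries, and 1, *Ctsl*, was over 2-fold lower in macrophages, at 741 CPM against 1800.2 CPM in other cells, a ratio of 0.411 (0.384–0.441). *Ctsl* was found in 99.9% of Sertoli marker cells. The 7 genes with E-box letters before their start were *Ctsd*, *Lgmn*, *Ctsa* and *Lamp1*, shown above, with *Gla* at 54.2 CPM against 5.69 CPM in other cells, *Glb1* at 29.4 against 18.1 CPM and *Mcoln1* at 10.1 against 7.52 CPM, so that they were not all far higher in macrophages. *Lyz2*, which encodes lysozyme, had 3, 41 and 205 UMIs per cell in the wild-type library and 0, 122 and 458 in the library labelled *Ddx5* cKO.

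*Apoe*, which encodes a lipid-carrying apolipoprotein, was found in all macrophages but 1. It had 0, 445 and 1413 UMIs per cell in the wild-type library and 12, 714 and 1684 in the library labelled *Ddx5* cKO. Its level was 30250.3 and 31361 CPM, which was 251 times (246–255) that in other kept cells. The macrophage without *Apoe* was the wild-type cell with 137 *H2-Aa* UMIs. Of 17 tested genes of lipid handling, 15 were over 2-fold higher than in other cells (median 2.87), with *Abca1*, a cholesterol exporter, at 9.78 times, *Plin2*, a coat protein of lipid droplets, at 8.35 times, and lipoprotein lipase (*Lpl*) at 7.86 times.

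Genes of iron and heme handling were the other large group. Their 16 listed genes took 59481 CPM in wild-type macrophages and 79867 CPM in those of the library labelled *Ddx5* cKO, against 4078 and 3971 CPM in other cells, and 12 of 13 tested genes were over 2-fold higher in both libraries (median 3.50). *Hmox1*, the heme oxygenase that opens the heme ring and frees its iron, had 0, 63 and 534 UMIs per cell in the wild-type library and 0, 156 and 644 in the library labelled *Ddx5* cKO. The cells fell on both sides of a wide range: 31 of 57 had at least 50 *Hmox1* UMIs, 18 of 35 and 13 of 22, while 21 had 1 to 49 and 5 had 0. None of 4114 Sertoli marker cells, which leave out cells of the macrophage rule, had 50. Ferroportin (*Slc40a1*), the only known iron exporter, was at 829 and 1003 CPM, 72.3 times (66.9–78.1) its level elsewhere, and was found in 42 of 57 cells. *Slc11a1*, a metal transporter of the phagosome, was 760.4 times (579–1014) its level in other cells. The ferritin chains *Ftl1* and *Fth1* were at 30992 and 40934 CPM and at 18067 and 25134 CPM. The transferrin receptor *Tfrc* had 1 UMI, the heme-induced transcription factor *Spic* 3 UMIs, and *Cd163* 1 UMI.

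**Figure D2:**
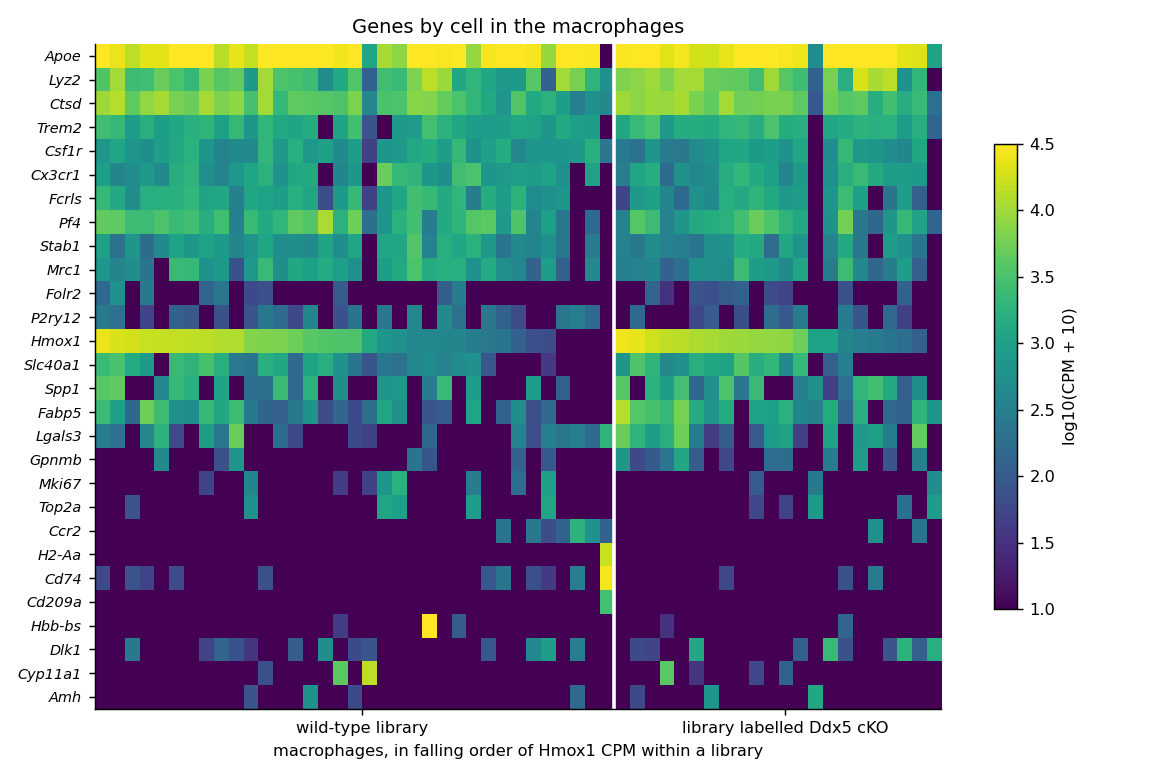
Each column is 1 of the 57 macrophages, in falling order of *Hmox1* within its library, each row a gene, and the colour its level as log10(CPM + 10). *Apoe* is high in nearly every column, and *Hmox1* and *Slc40a1* fade together to the right of each library. *H2-Aa* sits in 1 wild-type column. *Hbb-bs* appears in 3 wild-type columns, 1 with 1171 UMIs and the others with 1 each, and in 2 of the other library. *Dlk1* appears in 13 wild-type columns and 10 of the other library, and *Cyp11a1* and *Amh* in 7 columns each.

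Transcription factors of the lineage were found beside these genes. Of 16 tested factors, 12 were over 2-fold higher in macrophages and 1, *Id3*, was lower (median 2.13). *Irf8* was 34.2 times (29.6–39.4) and *Runx1* 32.7 times (26.4–40.2) its level in other cells. *Maf*, a factor that helps to keep macrophages differentiated, was 5.38 times (4.95–5.83) its level elsewhere. It was also found outside macrophages, in 54.1% of Sertoli marker cells.

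Signals released by macrophages were uneven between cells. Of 10 tested chemokine and cytokine genes, 9 were over 2-fold higher than in other cells (median 2.15), and 13 of 14 tested receptors were (median 2.03). *Ccl24*, a chemokine for eosinophils, had 85 UMIs in 22 cells, against 1 UMI in all other kept cells. *Ccl3* had 101 UMIs in 25 cells, *Ccl2* 56 in 23 and *Tnf* 28 in 17. Other cells with *Tyrobp* held some of these signals too. *Ccl2* was at 51.5 CPM against 172 CPM in the cells with *Ccr2* and *Lyz2*, and *Tnf* at 25.7 against 27.2 CPM there. *Ccl3* was at 92.8 CPM against 81.0 CPM in those with *S100a8* and *S100a9*, and *Ccl24* had 0 UMIs in all 3 groups. *Ccl6* was at 38.6 CPM, below all 3 groups (263, 333 and 90.2 CPM). All 32 *Cxcl2* UMIs came from 2 wild-type cells. *Il1b* had 3 UMIs, and *Il6*, *Il10* and *Cxcl1* had 0 UMIs. *Igf1*, a growth factor, was at 708 and 811 CPM, 1.72 times (1.61–1.85) its level in other cells. Of the ligands of *Csf1r*, *Csf1* had 11 UMIs in macrophages and *Il34* had 0. Of 18 listed genes of the interferon response 5 had enough UMIs, 3 of which were higher in macrophages (median 1.22), and *Isg15* had 13 UMIs.

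*H2-Aa*, *Ccr2* and *Ly6c2* were found in few macrophages. Of 11 listed genes of antigen presentation by MHC class II, 5 had enough UMIs, and 1, the costimulatory ligand *Cd86*, was over 2-fold higher than in other cells in both libraries (list median 2.73 log2, 1.61 with at least 10 C1q UMIs per cell, which leaves out the cell with *H2-Aa*, and 4.2 without the 30 cells with markers of another type). Of 14 listed monocyte genes, 6 had enough UMIs, of which *S100a4*, *Msrb1* and *Lgals3* were over 2-fold higher and *S100a6*, *Vcan* and *Fn1* over 2-fold lower (median 1.17, and −1.26 with at least 20 C1q UMIs per cell). *H2-Aa* was found in 1 of 57 macrophages, below the 5.81% of Sertoli marker cells with a UMI, and that wild-type cell held all 137 *H2-Aa* UMIs, 231 of 244 wild-type *Cd74* UMIs and all 24 *Cd209a* UMIs. It held 6 C1q UMIs and no UMI of *Apoe*, *Pf4* or *Fcrls*. *Ccr2*, the receptor that guides monocytes, was found in 7 macrophages of the wild-type library and in 2 of the library labelled *Ddx5* cKO, with 32 UMIs in all, and *Ly6c2* in 1 cell with 1 UMI. The largest *Ccr2* count, 12 UMIs, was in a wild-type cell with 11 C1q UMIs.

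*Mki67* and *Top2a*, genes of dividing cells, were found in some macrophages. The part of free RNA in this share was not tested. At least 1 UMI of either was found in 10 of 35 wild-type macrophages (28.6%, interval 14.6–46.3%) and in 5 of 22 of the library labelled *Ddx5* cKO (22.7%, 7.82–45.4%). With at least 10 C1q UMIs per cell the shares were 27.3% and 15%, and without the 30 cells with markers of another type 27.8% and 22.2%. At least 5 UMIs were found in 4 and 3 cells. The highest were wild-type cells with 32 *Mki67* and 39 *Top2a* UMIs and with 16 and 23, both with over 200 C1q UMIs, of which the first held all 10 stromal markers and the second 7 of 10 Sertoli cell markers. In the library labelled *Ddx5* cKO the highest were the cells with 8 and 6 C1q UMIs, which also held stromal or Sertoli cell markers. With every cell thinned to 3000 UMIs, the shares were 20% and 9.09% in macrophages, against 29.2% and 28.0% in other kept cells (40.2% and 37.6% before thinning), of which 241 were too shallow to be thinned. Genes of the cell cycle were lower in macrophages than in other cells, with 15 of 20 tested S phase genes and 25 of 33 tested G2/M genes over 2-fold lower and medians of −1.13 and −1.18.

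Cell-to-cell variation within the macrophages was described by Spearman correlations of CPM over the 57 cells, which share 2 libraries and differ in depth, so no p is given. *Hmox1* went with *Slc40a1* (rho 0.77, 0.75 and 0.73 within the wild-type library and the library labelled *Ddx5* cKO) and with *Ftl1* (0.75). It went less closely with *Fabp5* (0.63) and *Spp1* (0.32). *Mrc1* went with *Stab1* (0.74), and *Pf4* with *Fcrls* (0.68). *Lgals3*, which encodes galectin-3, went with *Gpnmb* (0.68, and 0.42 and 0.82 within the libraries) and opposite to *Mrc1* (−0.62, and −0.65 and −0.46 within the libraries). *Cx3cr1* and *Trem2*, both found in nearly all cells, had a rho of 0.019 in the wild-type library and 0.75 in the other. In the library labelled *Ddx5* cKO the cells with 8 and 6 C1q UMIs held 0 *Cx3cr1* UMIs and 2 and 0 *Trem2* UMIs. No rho was taken without these cells, in which markers of other types were found.

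**Figure D3:**
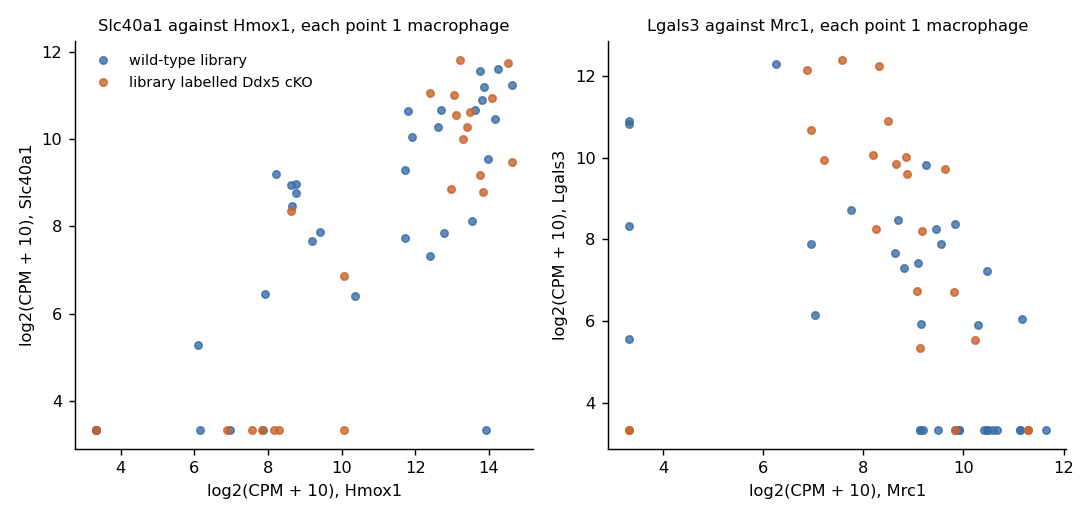
Each point is 1 macrophage, coloured by library, with *Slc40a1* against *Hmox1* in the left plot and *Lgals3* against *Mrc1* in the right plot, all axes as log2(CPM + 10). *Slc40a1* climbs with *Hmox1* in both libraries, and cells with high *Lgals3* tend to have low *Mrc1*.

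Between the libraries most macrophage genes differed little in size. Of 3316 genes with at least 50 UMIs in macrophages, 39 were over 2-fold higher (1.18%) and 47 over 2-fold lower (1.42%) in the library labelled *Ddx5* cKO, and the median log2 ratio was −0.03. Without the 30 cells with markers of another type, 7 were higher and 21 lower, of which 2 and 8 were among the first counts, and the share of higher genes went from 45.3% to 25%. With at least 10 C1q UMIs per cell, 27 were higher and 54 lower (33.3% higher). The split turned with the mean of CPM per cell, which gave 74 higher and 63 lower (54.0% higher), and when *Tyrobp* was not required, which gave 54 and 47 (53.5% higher). The latter setting added 1 cell, of the library labelled *Ddx5* cKO, with 23397 UMIs and 10 Sertoli cell markers. None of the 20 identity genes passed 2-fold, and their median log2 ratio was 0.01. *Csf1r* had a ratio of 0.763 (0.658–0.883), *Pf4* of 0.660 (0.605–0.720), *Fcrls* of 0.657 (0.576–0.748) and *Mrc1* of 0.678 (0.585–0.785), all below 1 but under 2-fold. *Lyz2* was higher by 1.87 times (1.77–1.98). With 1 library a genotype, animal, library and genotype cannot be told apart in any of these ratios.

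The named genes higher in the library labelled *Ddx5* cKO were *Gpnmb*, *Lgals3*, *Dlk1*, *Fabp5*, *Dcn*, *Plagl1*, *Meg3*, *Mfap4*, *Gstm1* and *Smoc2*. Of these, *Gpnmb*, *Lgals3* and *Fabp5* were also higher in macrophages than in other cells. *Gpnmb*, a glycoprotein of lysosomes and phagosomes, was found in 7 of 35 and 13 of 22 cells with up to 10 and 42 UMIs, at 35.8 and 211 CPM, a ratio of 5.90 (3.67–9.93). *Lgals3* had 0, 1 and 75 UMIs per cell in the wild-type library and 0, 8.5 and 179 in the library labelled *Ddx5* cKO. At least 10 UMIs were found in 5 of 35 and 11 of 22 cells, so that the ranges overlapped, and the ratio was 3.79 (3.20–4.52). *Fabp5*, a carrier of fatty acids, had 0, 4 and 128 and 0, 21 and 298 UMIs per cell, with a ratio of 2.93 (2.61–3.29). Few cells carried much of these sums: the 2 highest cells held 54.5% and 50.8% of *Lgals3* UMIs. Without the highest cell of each library the ratios were 7.10, 4.74 and 3.03, and without the 30 cells with markers of another type they were 3.24, 1.96 and 2.22.

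The other 7 named genes of that direction were all lower in macrophages than in other kept cells. *Dlk1*, *Dcn* and *Mfap4* are stromal markers of the list above, *Smoc2* encodes a matrix-associated protein, *Plagl1* and *Meg3* are imprinted genes of fetal tissue, and *Gstm1* encodes a glutathione transferase. *Dlk1* was at 116 and 401 CPM (1011 CPM in other cells) and *Dcn*, which encodes the matrix proteoglycan decorin, at 111 and 371 CPM (1372 CPM in other cells). Of the 7 stromal markers with enough UMIs, 5 were over 2-fold higher in the library labelled *Ddx5* cKO. Without the 30 cells with markers of another type, the ratio of *Dlk1* went from 3.46 to 0.901, that of *Dcn* from 3.35 to 1.35 and that of *Gstm1* from 2.61 to 0.819. *Dlk1* and *Dcn* are among the markers by which those cells were left out, so that the change in their ratios is in part set by that choice.

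The named genes lower in the library labelled *Ddx5* cKO were *Cd74*, *Rgs1*, *Acta2*, *Mki67*, *Srgn*, *Aard*, *Tmem176a*, *Tulp4*, *Hmgcs1* and *Zfp36*. *Rgs1*, a regulator of G protein signalling in leukocytes, was found in 17 of 35 and 10 of 22 cells with up to 24 and 4 UMIs, a ratio of 0.268 (0.1605–0.429). *Srgn*, which encodes the granule proteoglycan serglycin, had 0, 2 and 19 and 0, 0.5 and 4 UMIs per cell and a ratio of 0.303 (0.178–0.495). *Zfp36*, which encodes the mRNA-decay factor tristetraprolin, had a ratio of 0.419 (0.295–0.586). The ranges of all 3 overlapped between the libraries, and without the highest cell of each library the ratios were 0.308, 0.321 and 0.429. Without the 30 cells with markers of another type they were 0.172, 0.395 and 0.379. Of the 244 wild-type *Cd74* UMIs, 231 were in the 1 cell with *H2-Aa*, and without the highest cell of each library the ratio went from 0.0192 to 0.180. *Mki67* had 67 and 16 UMIs, a ratio of 0.279 (0.151–0.487), but 66 and 2 UMIs in cells with at least 10 C1q UMIs (0.0362, 0.00429–0.136) and 17 and 2 UMIs without the 30 cells with markers of another type (0.159, 0.0178–0.670). *Acta2*, the smooth muscle actin of peritubular myoid cells, had 163 and 46 UMIs, of which 112 and 30 were in 1 cell each, and its ratio went from 0.330 to 0.225 without those 30 cells. *Hmgcs1*, an enzyme of cholesterol synthesis, went from 0.357 to 1.04 and *Aard* from 0.297 to 0.847 without the highest cells.

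By gene group, the iron and heme genes lay mostly above 1 and the immediate early genes mostly below 1, where of all 3316 genes 1514 lay above and 1802 below. Of 13 tested iron and heme genes, 12 were above 1 in the library labelled *Ddx5* cKO and none passed 2-fold (median 0.40, and 0.15 without the 30 cells with markers of another type). *Hmox1* had a ratio of 1.33 (1.28–1.39), *Ftl1* of 1.32 (1.29–1.35) and *Gclm*, a subunit of the enzyme that starts glutathione synthesis, of 1.63 (1.40–1.89). Of 13 tested immediate early genes, 10 were below 1 (median −0.69, and −0.40 without those cells) and *Fos* and *Zfp36* were over 2-fold lower. *Fos* had 0, 5 and 26 UMIs per cell in the wild-type library and 0, 3.5 and 16 in the library labelled *Ddx5* cKO, with a ratio of 0.488 (0.386–0.613), and *Egr1* had 0.516 (0.403–0.658). In other kept cells the summed immediate early genes were at 3053 and 2288 CPM, so the same direction was seen there. Lysosomal genes had a median of 0.10 with 1 of 32, *Gpnmb*, over 2-fold higher. Of 5 tested MHC class II genes 4 were over 2-fold lower (median −4.32). For *H2-Aa*, *H2-Ab1* and *H2-Eb1* this rested on the 1 wild-type cell with *H2-Aa*, which held 137 of 137, 108 of 111 and 110 of 111 wild-type UMIs. *Cd74* stayed over 2-fold lower without the highest cell of each library, as given above. *Ltc4s*, the leukotriene C4 synthase, was lower at 61.8 against 157 CPM, a ratio of 0.394 (0.253–0.598).

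**Figure D4:**
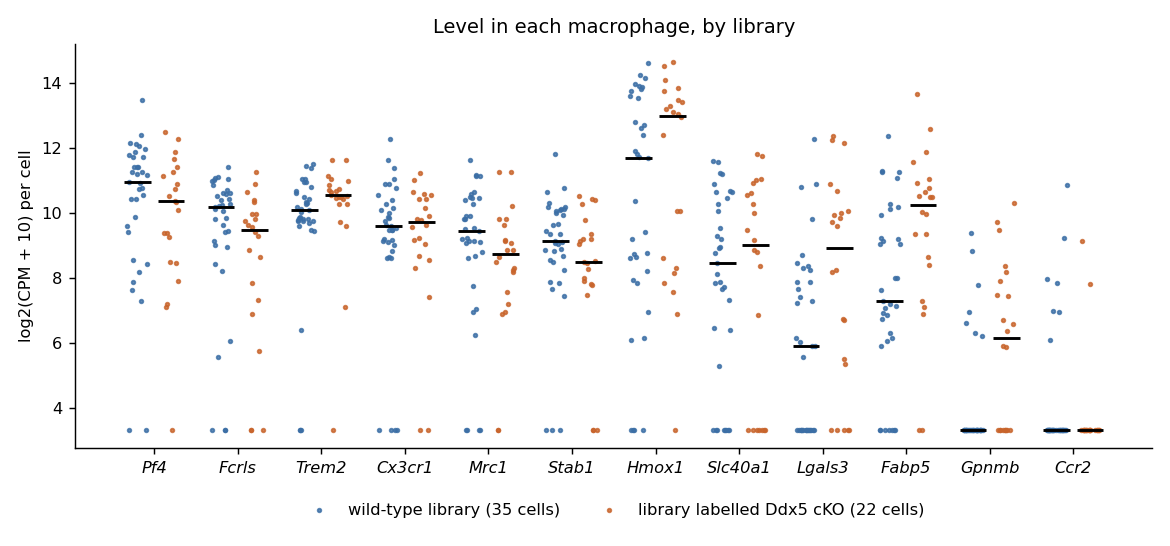
Each point is the level of a gene in 1 macrophage as log2(CPM + 10), 35 wild-type cells in blue and 22 cells of the library labelled *Ddx5* cKO in orange, with bars at the medians. The libraries overlap for all 12 genes, *Trem2* and *Cx3cr1* are found in nearly all cells, *Ccr2* in few, and the orange cells reach higher for *Lgals3*, *Fabp5* and *Gpnmb*.

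Other cells with *Tyrobp* were set beside the macrophages. The 3 groups lay outside the macrophage rule, and their numbers are given for the wild-type library and the library labelled *Ddx5* cKO. Cells with at least 50 *S100a8* and *S100a9* UMIs together numbered 8 and 39. Those with at least 5 *Tyrobp* and 50 *H2-Aa* UMIs numbered 8 and 0. Those with at least 5 *Tyrobp*, 1 *Ccr2* and 20 *Lyz2* UMIs, and in neither of the groups just named, numbered 5 and 22. These limits were chosen after the values were seen. While the ratio of the macrophage shares was 0.793 (0.443–1.39), that of all other cells with at least 5 *Tyrobp* UMIs was 2.74 (1.81–4.22), from 35 and 76 cells. *Pf4*, *Fcrls*, *Mrc1* and *Gpnmb* had 0 UMIs in all 3 groups and were at 2048, 930.1, 726 and 117 CPM in macrophages. *Csf1r* was at 712 CPM in macrophages and 522 CPM in the cells with *Ccr2* and *Lyz2*. Those cells also held *Cx3cr1* (85.2% of cells, at 372 CPM against 837 CPM in macrophages), *Trem2* (74.1%, at 449 against 1346 CPM) and *Apoe* (96.3%, at 13053 against 30762 CPM). *Hmox1* was at 7843 CPM in macrophages and at 90.7 CPM in those cells, and *Lyz2* at 4644 and 24582 CPM. *Ly6c2*, a surface protein of inflammatory monocytes, was at 1184 CPM in the cells with *Ccr2* and *Lyz2* and had 1 UMI in the macrophages.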

How the data were processed

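Testis cells of P2 mice, 8 numbered libraries per genotype, were profiled by 10x single-cell RNA sequencing. The deposited table holds raw UMI counts made by the authors for 30451 genes, with no normalization. The submitters' processing notes name Cell Ranger 3.1.0, Seurat 3.1.5 and the build GRCm38.

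Barcodes were kept from 1000 genes upwards and up to 10% mitochondrial UMIs. UMIs were summed over cells per library and scaled to CPM. Ratios have exact conditional binomial intervals, levels exact Poisson intervals and shares exact Clopper-Pearson intervals, all at 95%. Log2 medians of lists used a pseudocount of 10 CPM, which understates changes of low genes, and genes with at least 20 UMIs observed or expected (50 between libraries). For shares of cycling cells, cells were thinned to 3000 UMIs. Doublets were called with Scrublet in scanpy 1.11.5 and kept. Genes named are the 20 with the largest lower bound of the ratio to other cells (at least 50 UMIs, found in at least 50% of macrophages), the 10 per direction whose interval lay farthest from 1 between libraries (found in at least 20% of macrophages of the higher library), genes of the lists, *Ddx5*, GFP and CRE. The members and lists were chosen with earlier results of these data known. The C1q limits, the mitochondrial limit, the gene minimum, doublets, scaling and other choices were varied. Python 3.11.15, NumPy 2.4.6, SciPy 1.17.1, pandas 2.3.3 and Matplotlib 3.10.9 were used, and the scripts were tested on simulated data. Promoters came from RefSeq and lacked some of the genes. Mouse chromosome 18 was left out of the promoter search. Values of some listed genes are not reported here. Cells are not replicates, and no test was made.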

Additional observations from a re-analysis of the deposited data

Results flagged for a closer look

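Among barcodes outside the filter on cells, 8 of 198 in the wild-type library and 6 of 222 in the library labelled *Ddx5* cKO met the macrophage rule, which drew attention because no comparison above used them. Of these 14 barcodes, 13 had fewer than 1000 genes and 1 had 16.8% mitochondrial UMIs. They had between 5 and 44 C1q UMIs, with a median of 12.

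Haemoglobin genes lay on opposite sides of the level in other kept cells in the macrophages of the libraries, a difference that was not tested. The ratio of macrophages to other cells was 31.9 in the wild-type library and 0.0167 in the library labelled *Ddx5* cKO for *Hbb-bs*, 19.4 and 0.0142 for *Hba-a1*, and 19.4 and 0 for *Hba-a2*. In the wild-type library 1171 of 1173 *Hbb-bs* UMIs and all 209 *Hba-a1* UMIs were in 1 macrophage.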

How the results depend on the processing

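No paired analysis was possible because the table does not separate the 8 numbered libraries of a genotype, and for the same reason no replicate could be left out in turn. Leaving out the 30 macrophages with at least 3 markers of another type moved the shares to 0.275% and 0.173%, the genes over 2-fold higher and lower in macrophages to 346 and 379, and those higher and lower in the library labelled *Ddx5* cKO to 7 and 21, with fewer cells and so fewer genes tested. Without those cells the ratios between libraries reversed for *Dlk1* (0.901), *Gstm1* (0.819), *Plagl1* and *Mfap4* (0, from 0 UMIs in the library labelled *Ddx5* cKO) and *Hmgcs1* (2.70), and *Smoc2* gave no ratio because it had 0 wild-type UMIs. *Dlk1* and *Mfap4* are among the markers by which those cells were left out. *Hmgcs1* also reversed without the highest cell of each library (1.04), at most 5% mitochondrial UMIs (1.22), at least 10 C1q UMIs (1.31) and at least 20 (1.27), since 1 cell held much of its sum. At least 20 C1q UMIs turned the median of the monocyte list to −1.26, and the cause was not tested. The mean of CPM per cell gave 74 higher and 63 lower genes between libraries, scaling by the median ratio gave 560 lower genes in macrophages, and no minimum of UMIs, which lets in genes with few counts, gave 1588 higher and 4317 lower genes in macrophages and 2413 and 2974 between libraries. The settings of 20 C1q UMIs and of leaving out the highest cells were chosen after the data were seen. The share of cells with *Mki67* or *Top2a* stayed within its wide counting interval in 16 of 16 alternatives, although in the library labelled *Ddx5* cKO it fell from 22.7% to 15% with at least 10 C1q UMIs and to 9.09% with thinned cells, and the ratio of macrophage shares in 7 of 7. Leaving out doublets removed no macrophage. A floor of 3 UMIs in the macrophages is 5.12 and 5.98 CPM per library.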

Other observations

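Cells with *S100a8* and *S100a9*, genes of neutrophils, took 0.122% of kept wild-type cells and 0.750% of kept cells of the library labelled *Ddx5* cKO (ratio of shares 6.15, interval 2.83–15.2). Cells with *Ccr2* and *Lyz2* took 0.0762% and 0.423% (ratio 5.55, 2.05–18.8), and cells with *H2-Aa* took 0.122% and 0, for which the ratio had an upper bound of 0.739. The cells with *H2-Aa* held *Cd74*, the invariant chain of MHC class II, at 22257 CPM, against 228 CPM in macrophages. *Lgals3* was at 2000.2 CPM in the cells with *Ccr2* and *Lyz2* and at 687 CPM in macrophages, while *Fabp5* was at 104 and 1353 CPM. The groups were set by limits chosen after the values were seen, and with 1 library a genotype their shares carry no test.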
